A study of Arabidopsis thaliana with 9 samples.

Results

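LRX8 (AT3G19020), LRX9 (AT1G49490), LRX10 (AT2G15880) and LRX11 (AT4G33970) are the leucine-rich repeat extensins of Arabidopsis pollen. They were found by locus code in the gene annotation of the array, and each was read by 1 probe set, so the 4 genes stand for 4 of the 22746 probe sets tested. The annotation lists these genes by locus code, and the LRX names are those in common use. All 4 were measured on every array and no filter on low values was applied.

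The study measured mRNA bound to ribosomes in LAT52-HF-RPL18 plants, which carry a FLAG-tagged ribosomal protein L18 under the LAT52 promoter of pollen. Each of the 3 groups had 3 biological replicates, all of this transgenic genotype. The in vitro group was cultured pollen tubes, the in vivo group was self-pollinated flowers labelled as stage 14, and the bud group was floral buds of stage 11 to 12, which the series' own text calls unpollinated styles. Tagged ribosomes were captured with FLAG antibody beads from polysomes, the complexes of several ribosomes on 1 mRNA, and their mRNA was amplified and hybridised. An array value, or signal, is the brightness of a probe set on a linear scale after each array had been scaled to the same overall brightness. All plants were kept in days of 18 h light and 6 h dark at 22 °C, and no group without the transgene was analysed here.

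LRX proteins have a domain of leucine-rich repeats at the amino end and a proline-rich extensin domain at the carboxyl end that ties them to the cell wall. The pollen members bind secreted RALF peptides, among them RALF4 and RALF19, which also bind the receptor-like kinases ANX1, ANX2, BUPS1 and BUPS2 at the plasma membrane together with small LLG co-receptors. This signalling keeps the pollen tube from bursting while its tip grows. Plants lacking several pollen LRX genes have short, bursting pollen tubes and reduced seed set.

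The pull-downs did not hold pollen RNA alone in the bud and in vivo groups. The summed signal of 4 measured photosynthesis genes was 286 to 602 in vitro, 30032 to 45862 in vivo and 31192 to 56986 in bud. That of 10 measured genes of the pollen vegetative cell, the cell that forms the tube, was 150379 to 320841 in vitro, 12471 to 25035 in vivo and 2704 to 5637 in bud. PLIM2A alone gave 9158 to 18067 of that sum in vivo and 995 to 2968 in bud, and the median of the 10 genes overlapped between in vivo and bud. The sum over 5 tapetum genes was 113 to 876 in vitro, 521 to 1063 in vivo and 14612 to 23313 in bud. EMS1 alone gave 468 to 827 of that sum in vivo and 457 to 877 in bud. A9, SHT, AMS and ATA27 each had 4.11 to 160 in vivo and 493 to 13756 in bud. The sum over 4 pistil and ovule genes was 184 to 461 in vitro, 782 to 838 in vivo and 863 to 1020 in bud. SPT had 148 to 238 in vivo and 311 to 447 in bud, while NGA1, NGA3 and INO overlapped between these groups. Of 2 sperm genes, HTR10 had 3443 to 5580 in vitro, 197 to 320 in vivo and 128 to 365 in bud, and TET11 had 583 to 1083, 25.9 to 48.8 and 504 to 738, so TET11 alone was lower in vivo than in bud. A signal is read against the brightness of the whole array. A different mix of cells and a different amount of mRNA on tagged ribosomes per pollen cell therefore cannot be told apart. The part of this mix in the differences below was not tested.

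All 4 genes were brightest in cultured tubes, intermediate in pollinated flowers and dimmest in buds. LRX8 had signals of 75204, 62521 and 87042 in vitro, 1256, 1466 and 4409 in vivo, and 233, 317 and 162 in bud. No array of one group reached into another, and in vivo replicate 3 was the brightest of its group.

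LRX9 had signals of 100164, 89706 and 146344 in vitro, 2325, 1931 and 6903 in vivo, and 348, 393 and 209 in bud. The groups were again apart, with in vivo replicate 3 the highest of its group.

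LRX10 had signals of 71262, 75505 and 135503 in vitro, 451, 406 and 2184 in vivo, and 337, 174 and 70.1 in bud. Every in vivo array exceeded every bud array, but the dimmest in vivo array was only slightly above bud replicate 1. LRX11 had signals of 65516, 30711 and 52640 in vitro, 286, 243 and 785 in vivo, and 139, 47.3 and 53.3 in bud. Its bud values lay under the array's median signal on all 3 bud arrays, as did those of LRX10 on 2 and of LRX8 on 1, while no value of LRX9 did.

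**Figure D1:**
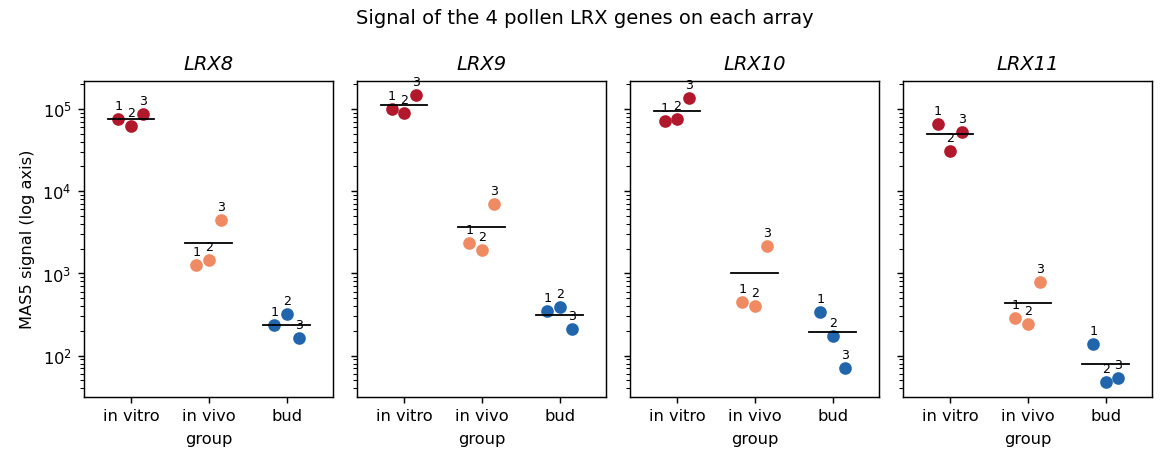
Signal of LRX8, LRX9, LRX10 and LRX11 (log axis) on each of the 3 in vitro, 3 in vivo and 3 bud arrays. Points are arrays numbered by replicate and bars are group means; the in vitro arrays lie at 30711 or above for all 4 genes, and the bud arrays at 393 or below.

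The comparison of cultured tubes with buds asked how far these mRNAs differ between growing tubes and developing flowers. All 4 genes rose in vitro, where 20.4% of all probe sets were called higher, 40.5% lower and 60.9% in either direction. Every in vitro array exceeded every bud array for all 4, as held for 22.7% of all probe sets. A probe set was called at an adjusted p under 0.05 in a limma fit over all probe sets, and a log2 fold is the difference of group means of log2(signal + 16), given with its standard error (SE). LRX11 rose by 9.07 ± 0.52 (SE, n = 3 arrays per group, adjusted p = 1.26e-07) and LRX10 by 8.97 ± 0.67 (SE, adjusted p = 5.82e-07). LRX9 rose by 8.41 ± 0.49 (SE, adjusted p = 1.31e-07) and LRX8 by 8.24 ± 0.47 (SE, adjusted p = 1.28e-07).

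As ratios of mean signals these were 620-fold for LRX11, 485-fold for LRX10, 354-fold for LRX9 and 316-fold for LRX8. Mean signals in vitro were 74923 ± 12263 for LRX8, 112071 ± 30138 for LRX9, 94090 ± 35927 for LRX10 and 49622 ± 17598 for LRX11, against bud means of 237 ± 77.3, 317 ± 96.2, 194 ± 135 and 80.0 ± 51.6 (SD, n = 3). The 4 log2 folds ranked between 17 and 52 from the highest among the 22746 probe sets. Over all probe sets the log2 fold had a median of -0.42, which became 0.22 after quantile normalization and 0.63 once array medians were made equal, so folds are to be read against that shift. The split of calls moved with it: 4645 probe sets were called higher and 9214 lower, against 6827 and 6232 after quantile normalization and 9490 and 6154 with equal medians.

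The comparison of cultured tubes with pollinated flowers set pollen tubes grown in culture against pull-downs from self-pollinated flowers, which also held RNA of other tissue. All 4 genes rose in vitro, where 20.0% of all probe sets were called higher, 39.4% lower and 59.3% in either direction. Every in vitro array exceeded every in vivo array for all 4, as held for 22.8% of all probe sets. LRX11 rose by 6.90 ± 0.52 (SE, adjusted p = 8.37e-07) and LRX10 by 6.89 ± 0.67 (SE, adjusted p = 4.69e-06), which ranked 32 and 33 from the highest of all probe sets. LRX8 rose by 5.19 ± 0.47 (SE, adjusted p = 3e-06) and LRX9 by 5.12 ± 0.49 (SE, adjusted p = 4.07e-06), at ranks 236 and 251.

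The mean signals in vitro were 113-fold those in vivo for LRX11, 92.8-fold for LRX10, 31.5-fold for LRX8 and 30.1-fold for LRX9. The in vivo means were 438 ± 301 for LRX11, 1014 ± 1014 for LRX10, 2377 ± 1763 for LRX8 and 3720 ± 2764 for LRX9 (SD, n = 3). In each case in vivo replicate 3 was the brightest of its group. The median over all probe sets was -0.36 on the log2 scale, against 0.26 after quantile normalization and 0.67 with equal medians, and the calls were 4542 higher and 8953 lower, against 6847 and 5986 and against 9382 and 6037.

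The comparison of pollinated flowers with buds set a later floral stage against an earlier one. Stage and pollination differ together there and cannot be told apart. LRX9, LRX8 and LRX11 rose in vivo and LRX10 did not pass the test, where 2.15% of all probe sets were called higher, 1.87% lower and 4.02% in either direction. LRX9 rose by 3.29 ± 0.49 (SE, adjusted p = 0.00253) and LRX8 by 3.05 ± 0.47 (SE, adjusted p = 0.00347), which ranked 31 and 61 from the highest. LRX11 rose by 2.17 ± 0.52 (SE, adjusted p = 0.0399), at rank 291, and LRX10 stood at rank 333. LRX10 had a log2 fold of 2.08 ± 0.67 (SE, adjusted p = 0.153), though its in vivo arrays all lay above its bud arrays, as held for 11.2% of all probe sets.

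Mean signals in vivo were 11.7-fold those of bud for LRX9, 10-fold for LRX8, 5.47-fold for LRX11 and 5.23-fold for LRX10. Without in vivo replicate 3 the log2 folds were 2.73 for LRX9 (adjusted p = 0.00651), 2.48 for LRX8 (adjusted p = 0.00832), 1.67 for LRX11 (adjusted p = 0.159) and 1.31 for LRX10 (adjusted p = 0.477). The rise of LRX9 and LRX8 passed without that array and that of LRX11 did not. The call of LRX11 was also lost without in vivo replicate 1 or 2 or bud replicate 2 or 3 (1.94 to 2.48, adjusted p = 0.0564 to 0.18). All 3 comparisons share arrays in pairs, so the sizes of the folds are set side by side and no relation between them is tested.

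Whether the 4 genes changed by the same amount was examined as the difference of 2 members' log2 values within each array, which nearly cancels anything that multiplies both signals alike. Probe sets differ in how brightly they bind, so only changes of this difference between groups are read here. Saturation of the bright in vitro signals was not checked, and the bud signals of LRX10 and LRX11 are dim. Both can change the difference between groups, and their part was not tested. LRX9 minus LRX11 was 0.61, 1.55 and 1.47 in vitro, 2.96, 2.91 and 3.11 in vivo, and 1.23, 2.69 and 1.70 in bud. LRX9 minus LRX10 was 0.49, 0.25 and 0.11 in vitro, 2.32, 2.21 and 1.65 in vivo, and 0.04, 1.10 and 1.38 in bud. For both pairs all in vivo arrays lay above all in vitro and all bud arrays.

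LRX8 minus LRX10 was 0.08, -0.27 and -0.64 in vitro, 1.44, 1.81 and 1.01 in vivo, and -0.51, 0.81 and 1.05 in bud. LRX8 minus LRX11 was 0.20, 1.03 and 0.73 in vitro, 2.07, 2.52 and 2.47 in vivo, and 0.68, 2.39 and 1.36 in bud. These also separated in vitro from in vivo arrays without overlap, while in vivo and bud arrays overlapped. For these pairs and those above, how often other pairs of probe sets separate between groups was not computed.

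LRX8 and LRX9 kept nearly the same difference in the 3 groups, at -0.56 ± 0.17 in vitro, -0.64 ± 0.24 in vivo and -0.39 ± 0.14 in bud (SD, n = 3). LRX10 minus LRX11 was 0.93 ± 0.70 in vitro, 0.93 ± 0.46 in vivo and 1.03 ± 0.65 in bud (SD, n = 3). Within both of these pairs the arrays of all groups overlapped.

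For in vitro over in vivo, the log2 fold of LRX8 minus that of LRX10 was -1.70 ± 0.31, and minus that of LRX11 -1.70 ± 0.28. That of LRX9 minus those of LRX10 and LRX11 was -1.78 ± 0.23 and -1.78 ± 0.31 (SE, n = 3 arrays per group). Over 18 alternative settings of the fit these 4 differences ran from -2.38 to -1.47. Each gave p = 0.1 in a two-sided exact permutation test of 3 against 3 arrays, the smallest p this design allows, and 0.3 after adjustment over the 18 comparisons of 6 pairs. None of the 18 comparisons passed, and the division into LRX8 with LRX9 and LRX10 with LRX11 was noticed in these values. Between in vivo and bud, LRX9 exceeded LRX10 by 1.22 ± 0.46 and LRX11 by 1.12 ± 0.44 in log2 fold (SE, exact permutation p = 0.1, adjusted 0.3). Between in vitro and bud no pair was without overlap.

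**Figure D2:**
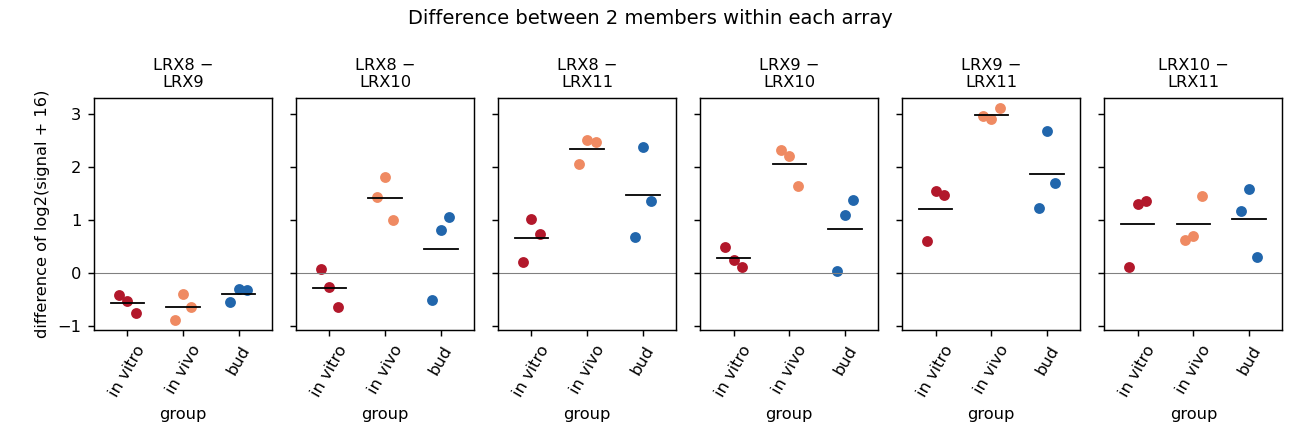
Difference of log2(signal + 16) between 2 LRX genes within each array, for the 6 pairs, by group; points are arrays and bars are group means. LRX8 minus LRX9 (group means -0.64 to -0.39) and LRX10 minus LRX11 (group means 0.93 to 1.03, single arrays 0.12 to 1.59) overlap between groups. The 4 differences across these pairs are higher in vivo than in vitro.

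Within groups the 4 genes moved together on some arrays and apart on others. All 4 lay above both other arrays of their group on in vivo replicate 3 and on no other array. In vivo replicate 3 exceeded the mean of the other 2 in vivo arrays by log2 differences of 2.31 for LRX10, 1.70 for LRX9, 1.69 for LRX8 and 1.52 for LRX11. For the 10 vegetative cell genes the median of this log2 difference was 0.96. Of the 10, 9 lay above both other arrays, as did 42.9% of all probe sets. The median of the difference over all probe sets was 0.08. In bud, replicate 3 was the dimmest for LRX8, LRX9 and LRX10, by -0.69, -0.78 and -1.59, and LRX11 was dimmest on replicate 2. Bud replicate 1 was high for LRX10 and LRX11, by 1.46 and 1.23, but not for LRX8, at 0.03, and bud replicate 2 was at 0.66 for LRX8 and -0.71 for LRX11.

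In vitro, replicate 3 was the brightest array for LRX8, LRX9 and LRX10, and replicate 1 for LRX11. The deviations of 2 members from their group means correlated at 0.66 to 0.96 over the 9 arrays, highest for LRX8 with LRX9 and lowest for LRX8 with LRX11. The arrays of in vivo replicate 1 and in vitro replicate 3 stood apart in their hybridisation controls, with medians of 1719 and 78110 against 5995 to 17570 on the other arrays. Without both, the folds of the 4 genes kept their direction, and the call of LRX11 between in vivo and bud was lost (2.37, adjusted p = 0.0649).

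**Figure D3:**
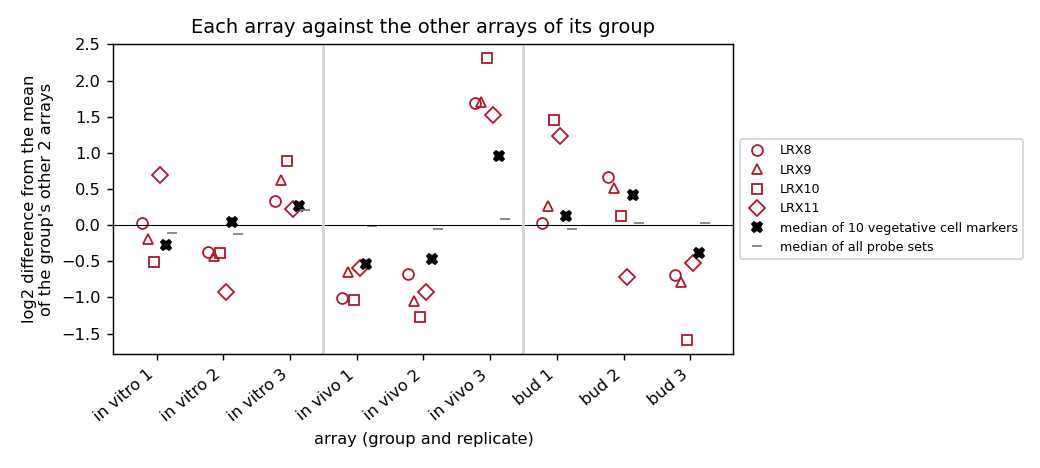
Log2 difference of each array from the mean of the other 2 arrays of its group, for the 4 LRX genes. Medians of this difference over 10 vegetative cell genes and over all probe sets are also shown. On in vivo replicate 3 the LRX genes are up by 1.52 to 2.31. The median difference there is 0.96 for the vegetative cell genes and 0.08 for all probe sets.

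The LRX genes were also set against the vegetative cell genes of the same array. The median log2 value of the 10 vegetative cell genes was 12.18, 12.42 and 12.64 in vitro, 8.45, 7.88 and 9.03 in vivo, and 8.57, 8.18 and 7.59 in bud, so it was higher in vitro and overlapped between in vivo and bud. Relative to this median, LRX9 stood at 4.44, 4.03 and 4.52 in vitro, 2.74, 3.05 and 3.72 in vivo, and -0.06, 0.49 and 0.23 in bud. LRX8 stood at 4.02, 3.51 and 3.77 in vitro, 1.86, 2.66 and 3.08 in vivo, and -0.61, 0.20 and -0.11 in bud. All in vivo arrays of both genes lay above all bud arrays and below all in vitro arrays.

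LRX10 stood at 3.95, 3.78 and 4.41 in vitro, 0.42, 0.84 and 2.07 in vivo, and -0.10, -0.61 and -1.16 in bud. LRX11 stood at 3.82, 2.48 and 3.05 in vitro, -0.21, 0.14 and 0.61 in vivo, and -1.29, -2.20 and -1.47 in bud. Relative to the vegetative cell genes, the mean of in vivo over bud was higher by 2.95 for LRX9, 2.70 for LRX8, 1.83 for LRX11 and 1.73 for LRX10, and that of in vitro over in vivo by 2.94 for LRX10 and LRX11, 1.24 for LRX8 and 1.16 for LRX9. None of the groups overlapped in these 12 comparisons, and how often this holds among all probe sets was not computed. Each gave p = 0.1 in a two-sided exact permutation test. That is the smallest p this design allows, so adjustment over the 12 had to leave it at 0.1. The 12 share arrays and the same median of vegetative cell genes, so they are not separate results. These differences compare 4 genes with 10 others and do not measure the amount of pollen RNA.

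Among the other genes of the pathway the vegetative LRX genes, which act in root hairs, roots and shoots, were dim. Of 7 listed, 4 were measured, and 1 fell in vitro against both other groups. Counts of this and the following gene lists are to be read beside the shares over all probe sets. In vitro against in vivo 20.0% were called higher and 39.4% lower, and against bud 20.4% and 40.5%. Between in vivo and bud the shares were 2.15% and 1.87%. LRX4 (AT3G24480) had 23.3, 21.1 and 37.5 in vitro, 160, 143 and 118 in vivo, and 117, 177 and 184 in bud, with log2 folds of -1.86 against in vivo and -2.01 against bud (adjusted p = 0.000392 and 0.000211). LRX7 (AT5G25550) had 185, 141 and 4.84 in vitro, 23.5, 3.65 and 14.2 in vivo, and 144, 176 and 146 in bud. Its log2 fold in vivo over bud was -2.58 ± 0.70 (SE, adjusted p = 0.0767), which was called in 4 of the 17 alternatives that gave it a value, among them the one without in vitro replicate 3. The median log2 fold of the measured vegetative LRX genes between in vivo and bud was 0.01, against 2.61 for the pollen LRX genes and -0.02 for all probe sets.

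The RALF genes, which encode the secreted peptide ligands, moved in opposite directions. Of 13 listed, 4 were measured, with 2 rising and 2 falling in vitro against both other groups. Over all probe sets 20.0% rose and 39.4% fell against in vivo, and 20.4% and 40.5% against bud. RALF4 and RALF19 had no probe set named here. RALF26 (AT3G25170) had 86761, 99303 and 321220 in vitro, 4012, 4895 and 6453 in vivo, and 1097, 617 and 209 in bud. RALF25 (AT3G25165) had 55423, 57144 and 110155 in vitro, 8322, 14597 and 15284 in vivo, and 3167, 2266 and 1123 in bud.

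Both rose in every comparison, between in vivo and bud by 3.22 ± 0.62 for RALF26 (SE, adjusted p = 0.0122) and 2.61 ± 0.46 for RALF25 (SE, adjusted p = 0.00744). The call of RALF26 between in vivo and bud was lost without in vivo replicate 3, in vivo replicate 2 or bud replicate 3, and that of RALF25 between in vitro and in vivo with quantile normalization (0.47, adjusted p = 0.396). RALF33 and RALF34 fell in vitro, RALF34 to 74.1, 26.2 and 13.5, against 4637, 3750 and 6030 in vivo and 9211, 6869 and 8697 in bud. Neither was called between in vivo and bud.

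Of 12 listed receptor-like kinases of the CrRLK1L family and their LLG co-receptors, 6 were measured, and none of the co-receptors was among them. The 4 pollen receptors rose in vitro against both other groups. ANX2 (AT5G28680) had 44538, 43678 and 21800 in vitro, 690, 485 and 904 in vivo, and 185, 71.7 and 119 in bud. BUPS1 (AT4G39110) had 59578, 64045 and 98758 in vitro, 1645, 1184 and 2487 in vivo, and 399, 301 and 223 in bud.

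Between in vivo and bud BUPS1 rose by 2.44 and ANX2 by 2.36, and BUPS2 and ANX1 had log2 folds of 1.48 (adjusted p = 0.0568) and 1.46 (adjusted p = 0.173). BUPS2 was called in 5 of the 18 alternatives, among them the one without in vitro replicate 3. The call of ANX2 was lost without bud replicate 2 or in vivo replicate 3. FER and THE1, other receptors of the same family, fell in vitro: FER had 9.75, 3.16 and 13.7 in vitro, 2157, 1734 and 1642 in vivo, and 1320, 1914 and 2199 in bud. In vitro over in vivo, the log2 folds of the 4 pollen receptors were 5.07 to 5.66, beside 5.12 and 5.19 for LRX9 and LRX8 and 6.89 and 6.90 for LRX10 and LRX11.

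Downstream of the receptors, 2 of 16 listed genes were measured and both rose in vitro. MRI (AT2G41970), a receptor-like cytoplasmic kinase needed for tube integrity, had 13699, 14183 and 14614 in vitro, 443, 445 and 749 in vivo, and 292, 266 and 135 in bud. Its log2 fold was 4.70 in vitro over in vivo and 5.91 over bud, and 1.21 (adjusted p = 0.127) in vivo over bud. AUN2 (AT5G27840), a protein phosphatase that acts against tube integrity signalling, rose by 1.98 in vitro over in vivo and by 2.27 over bud, with 0.29 (adjusted p = 0.963) in vivo over bud.

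Extensin domains are matured by hydroxylation of proline and the addition of arabinose. Of 13 listed genes of these enzymes 5 were measured, with 1 rising and 1 falling in vitro against each of the other groups. The shares over all probe sets were 20.0% higher and 39.4% lower against in vivo, and 20.4% and 40.5% against bud. No test of the list was run. P4H4 (AT5G18900), a prolyl hydroxylase, had 6066, 9515 and 4014 in vitro, 1387, 1027 and 1523 in vivo, and 659, 1429 and 1195 in bud. HPAT3 (AT5G13500), which adds the first arabinose, had 16.6, 16.3 and 41.5 in vitro, 516, 525 and 529 in vivo, and 322, 618 and 412 in bud. Their log2 folds in vitro over in vivo were 2.23 (adjusted p = 0.000656) and -3.78 (adjusted p = 4.21e-06).

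XEG113, EXAD and SERGT1 were not called in any comparison. With quantile normalization XEG113 and SERGT1 were called higher in vitro than in bud, and XEG113 also with equal medians. XEG113 was called between in vitro and in vivo in 3 of the 18 alternatives, among them the one without in vitro replicate 3, and not otherwise (log2 fold -0.67, adjusted p = 0.0923). None of the 5 was called between in vivo and bud. The extensin EXT2 (AT3G54590), the 1 measured of 10 other extensin domain genes, had a log2 fold of 1.25 in vitro over in vivo (adjusted p = 0.0111), lost without in vivo replicate 1 (adjusted p = 0.0529), and 0.15 (adjusted p = 0.994) in vivo over bud. Its probe set is of a type that can bind related transcripts. Of 14 listed pollen tube wall genes none had a probe set named here.

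**Figure D4:**
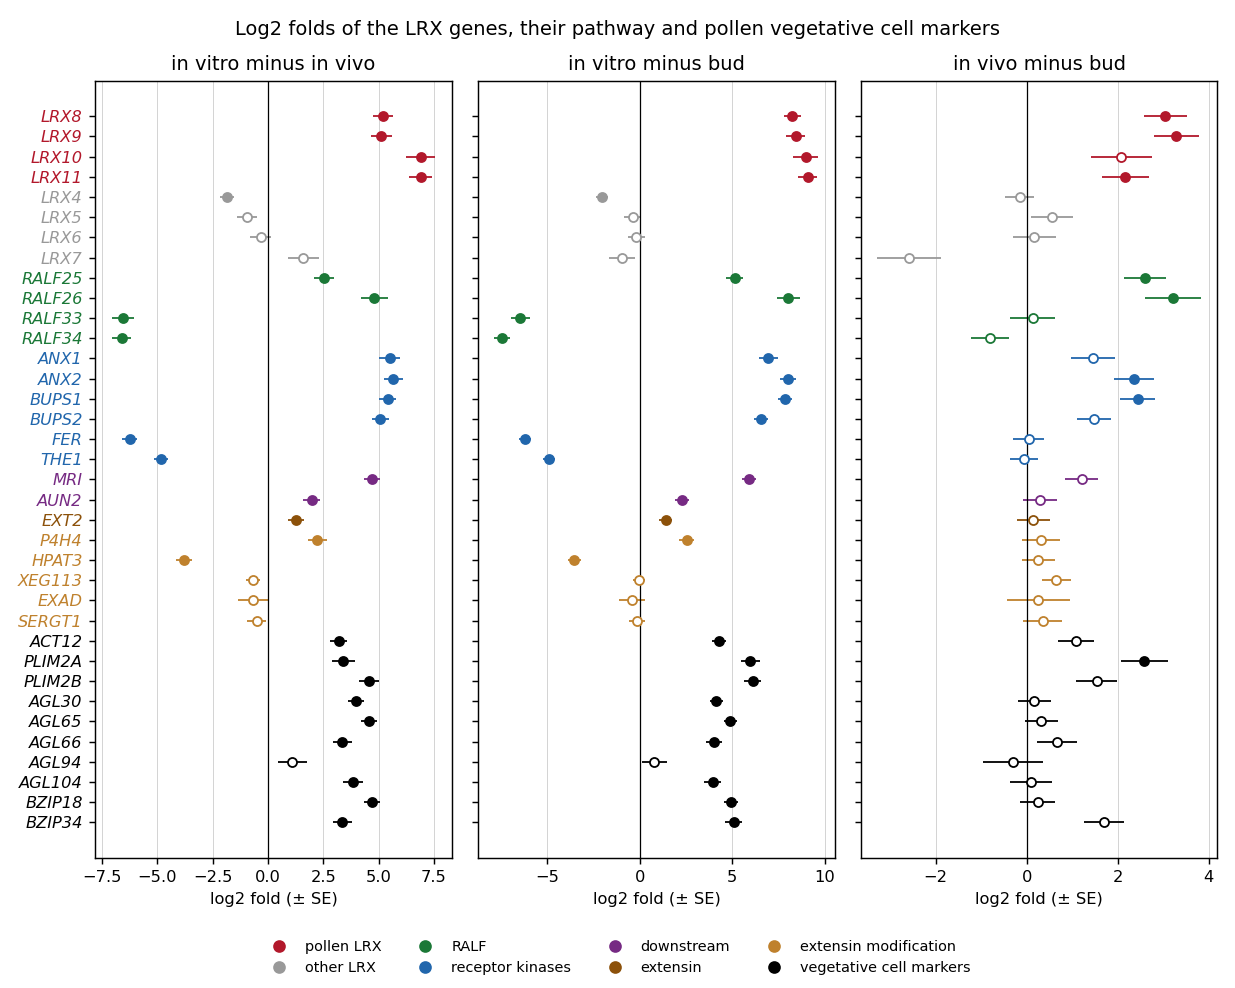
Log2 folds ± SE of the limma fit for the 4 pollen LRX genes, measured genes of their pathway and 10 vegetative cell genes, in vitro minus in vivo, in vitro minus bud and in vivo minus bud (filled, adjusted p under 0.05; open, not called). Axes differ between panels; in vivo minus bud, 3 of 4 pollen LRX genes and 1 of 10 vegetative cell genes are filled.

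Of the 10 measured vegetative cell genes 9 rose in vitro against each of the other groups, with a median log2 fold of 3.62 over in vivo and 4.58 over bud, beside 6.04 and 8.69 for the 4 LRX genes. Between in vivo and bud 1 of the 10 rose and their median was 0.49. The riser was PLIM2A (AT2G45800), an actin-bundling protein, at 2.59 ± 0.52 (SE, adjusted p = 0.0154), and its call was lost without in vivo replicate 2 or 3, without bud replicate 3 and with an offset of 1. Its call in vitro over in vivo was lost with quantile normalization (1.30, adjusted p = 0.0558). The transcription factor gene BZIP34 had 1.71 (adjusted p = 0.0588) and was called in 5 of the 18 alternatives, among them those without in vitro replicate 1 or 3. PLIM2B, of the same family as PLIM2A, had 1.54 (adjusted p = 0.103) and was called in 2 of them, and the pollen actin ACT12 had 1.09 (adjusted p = 0.222). The MADS-box regulators AGL65 and AGL104 of late pollen development had 0.32 and 0.09 (adjusted p = 0.939 and 0.994).

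Genes with the most similar pattern were those of highest Pearson correlation with the mean log2 value of the 4 LRX genes over the 9 arrays, among 6034 probe sets with 1 named gene and a mean above the median. The 9 arrays form 3 groups that differ strongly, so 97 of these probe sets exceeded r = 0.99 and the order among them says little. The first was PUB15 (AT5G42340, r = 0.9984), named as a plant U-box protein. It had 16138, 14652 and 15224 in vitro, 547, 471 and 1165 in vivo, and 172, 163 and 91.9 in bud. Then came AT2G26850 (r = 0.9975) and AT3G29180, AT5G35090 and AT1G04540 (r = 0.997 each).

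AT1G04540, which also led for LRX10 alone (r = 0.9956), had 59480, 74720 and 121072 in vitro, 763, 718 and 1744 in vivo, and 276, 192 and 86.7 in bud. The closest to LRX8 was AT3G55430 (r = 0.9989), with PUB15 second (r = 0.9968), and the closest to LRX9 was AT5G55980 (r = 0.9984), with AT3G55430 second (r = 0.9967). AT5G55980 had log2 folds of 4.99 in vitro over in vivo and 3.41 in vivo over bud, beside 5.12 and 3.29 for LRX9. It was picked for its likeness to LRX9 on these same arrays, so similar folds follow from the selection. The closest to LRX11 were AT3G19010 (r = 0.9977) and AT3G22750 (r = 0.9973), and the second for LRX10 was AT5G35090 (r = 0.9954). The 4 LRX genes themselves correlated with each other at 0.98 to 0.999, highest for LRX8 with LRX9 and next for LRX10 with LRX11 at 0.992.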

How the data were processed

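Per the submitters' processing notes, MAS5 produced the intensity values that the authors deposited, 1 per probe set and array, and no version of it is given in the sources used here. Every array had a 2% trimmed mean near 500, so each had been scaled to one target. The 64 controls among the 22810 probe sets did not enter the fit. The gene annotation named 1 gene for 13513 probe sets, matched to RefSeq locus codes (TAIR10.1). No coordinates or sequences are printed, because the tables used here hold no sequence and no build for the probe sets.

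From the deposited values log2(signal + 16) was computed and fitted with limma 3.58.1 in R 4.3.3 to all 9 arrays, 1 mean per group, two-sided, adjusted by Benjamini-Hochberg over 22746 probe sets. The fit was tested on simulated data in which few probe sets changed and no overall shift between groups was put in. That test therefore cannot show how the fit behaves under the shift of the median log2 fold seen here. The offset understates folds of dim genes. Detection calls and saturation were not used here, and the number of arrays limits the precision. Within-array differences were tested by exact permutation in scipy 1.17.1. The alternatives were other offsets (1 and 64), quantile normalization, equal array medians, a dim filter, 6 arrays alone, a replicate block, another prior and single arrays left out.

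The 4 genes and the lists (153 genes, 51 with a probe set) were chosen with earlier results of these data known. Named genes are the 4 LRX genes, listed genes, and those most alike in pattern (5 for the mean, 2 per gene). Replicate numbers were not used to pair arrays in the main fit, and the labels do not say whether same-numbered arrays were prepared together. Deviations of same-numbered arrays correlated at -0.05 to 0.07, which cannot settle that.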

Additional observations from a re-analysis of the deposited data

How the results depend on the processing

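Of the 12 log2 folds of the 4 LRX genes, 11 kept their direction and their side of the threshold in all 18 alternatives, and LRX11 between in vivo and bud kept its direction in all 18 and its call in 10. In vitro over in vivo the folds ran from 3.69 to 7.92 and in vitro over bud from 7.32 to 10.13. LRX10 between in vivo and bud was not called in any of the 18 (1.31 to 2.56, adjusted p = 0.0927 to 0.523). LRX11 between in vivo and bud was not called with an offset of 1 (2.41, adjusted p = 0.0936), with quantile normalization (2.03, adjusted p = 0.08) or without in vivo replicate 1 and in vitro replicate 3, a setting chosen after seeing the data (2.37, adjusted p = 0.0649). With single arrays left out it ran from 1.67 to 2.58, and the call was lost without bud replicate 2 or 3 or any of the in vivo replicates (adjusted p = 0.0564 to 0.18). The cause was not tested. The number of probe sets called between in vivo and bud was 915, and 579 with an offset of 1, 1378 with only the 6 arrays compared and 541 to 1292 with single arrays left out. With the replicate block the LRX11 fold was 2.17 (adjusted p = 0.0362), and the count between in vivo and bud was 784. The block changed no call of the 4 LRX genes. The dim bud signals of LRX10 and LRX11 are the least well measured, which limits the folds over bud. An RNA gene of the RefSeq table, AT4G03355, overlaps LRX11, and the strand read by its probe set was not checked here.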

Other observations

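The genes next to the LRX genes on the chromosomes, looked at after the data were seen, are given as values only. Of the 8 protein-coding neighbours 6 had a probe set named here. In vitro over bud 2 were higher and 2 lower, in vitro over in vivo 2 were higher and 3 lower, and none was called between in vivo and bud. Over all probe sets 20.4% were higher and 40.5% lower in vitro over bud, 20.0% and 39.4% in vitro over in vivo, and 4.02% were called between in vivo and bud. AT3G19010, next to LRX8, had 13501, 10694 and 14247 in vitro, 960, 999 and 1399 in vivo, and 632, 459 and 375 in bud, with a log2 fold of 4.69 in vitro over bud (adjusted p = 4.15e-07). It is also the gene whose pattern was closest to that of LRX11, on another chromosome. AT4G33980, next to LRX11, had 500, 456 and 324 in vitro, 150, 140 and 34.8 in vivo, and 116, 103 and 59.8 in bud, with a log2 fold of 2.04 in vitro over bud (adjusted p = 0.00271). AT3G19030, on the other side of LRX8, had 24.9, 26.9 and 114 in vitro, 306, 490 and 146 in vivo, and 125, 50.4 and 337 in bud, and it fell in vitro against in vivo (-2.29, adjusted p = 0.0109). AT2G15860, next to LRX10, had a log2 fold of -2.93 in vitro over bud (adjusted p = 0.000538). AT1G49500, next to LRX9, fell in vitro against in vivo (-2.24, adjusted p = 0.00865) and against bud (-2.14, adjusted p = 0.0106). AT4G33960, on the other side of LRX11, was not called in any comparison.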
